A study of Mus musculus with 4 samples.

Results

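The nuclear-encoded subunits of the respiratory chain and the ATP synthase were followed in gonadotropes of control mice and of mice with a conditional knockout (cKO) of Gata2. The members were the protein-coding rows whose symbols start with Ndufa, Ndufb, Ndufc, Ndufs, Ndufv, Cox4 to Cox8, Atp5 or Uqcr, or are Sdha, Sdhb, Sdhc, Sdhd, Cyc1 or Cycs, without the Ndufaf assembly factors. A row also needed 10 counts in at least 2 libraries. The table has 54532 rows, of which 88 had such names, and 81 of these were members. Complex I had 36 members, complex II 4, complex III 9, complex IV 12 and complex V 16. The remaining 4 were the soluble electron carrier cytochrome c (Cycs), the tissue-restricted complex IV isoforms Cox6b2 and Cox7a1, and Atp5s, whose product is not a subunit of the enzyme.

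Gonadotropes are the pituitary cells that make luteinizing hormone and follicle-stimulating hormone, and the Gata2 gene encodes a transcription factor with zinc fingers. RNA with poly(A) tails came from cells sorted out of the pituitaries of male mice of mixed strain aged 10 to 12 weeks, with 2 libraries from controls and 2 from cKO mice. The sample labels name sorted cells, while the text on the design speaks of whole pituitaries. The driver of the deletion, the genotype of the controls beyond that word, and whether libraries came from separate animals are not stated in the sources at hand. A p-value therefore speaks only of how far these libraries lie apart, and that distance could be technical.

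The libraries held 10646909 (control replicate 1), 21135301 (control replicate 2), 15541553 (cKO replicate 1) and 18362182 (cKO replicate 2) counts. Levels below are CPM, which divide a gene's counts by the total of its library, scaled between libraries with TMM factors, and 4 values in a row follow that order of libraries. Gata2 stood at 537, 526, 221 and 214 CPM and fell in the cKO (log2 fold change -1.29, SE 0.14, edgeR adjusted p = 0.0473), counted over the whole gene. Control replicate 1 stood apart: across genes its log2 CPM had a Pearson's r of 0.889 with the other control, while that other control had 0.917 and 0.928 with the cKO libraries. Xist, a transcript of female cells, had 57, 38, 0 and 0 counts in these libraries labelled male, so it was seen in the controls only. Ddx3y, a gene of the Y chromosome, had 1527, 3063, 2304 and 2404 counts. The 5 gonadotrope markers (Lhb, Fshb, Cga, Gnrhr and Nr5a1) were present in all libraries and together made up 15064, 13606, 6660 and 7934 CPM. Fshb, which codes for the beta subunit of follicle-stimulating hormone, fell (log2 fold change -2.01, SE 0.18, edgeR adjusted p = 0.0381). Other hormone cells of the pituitary left transcripts too: Prl, the lactotrope hormone, stood at 312, 583, 1249 and 1271 CPM, and Pomc, of corticotropes and melanotropes, at 7161, 9813, 6032 and 7145 CPM. Gh, of somatotropes, stood at 1124, 2375, 2149 and 385 CPM, far apart between the cKO libraries. The part of these cells in the results below was not tested. In libraries of many cells, fewer cells of a type and less RNA per cell cannot be told apart.

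The respiratory chain moves electrons from food-derived carriers to oxygen across the inner mitochondrial membrane. Complex I (NADH dehydrogenase) and complex II (succinate dehydrogenase) pass electrons to ubiquinone, complex III passes them to cytochrome c, and complex IV (cytochrome c oxidase) passes them to oxygen. Complexes I, III and IV pump protons, and complex V (ATP synthase) uses the returning protons to make ATP. The genome of the mitochondrion codes for some subunits of complexes I, III, IV and V, and nuclear genes code for all the others, including every subunit of complex II. Nuclear respiratory factors, among them NRF1 and the ETS protein GABP, are known regulators of the nuclear genes.

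The promoters of the members carried NRF1 letters more often than promoters at large. A window from 250 bases before to 50 bases after the start of transcription was searched on both strands in RefSeq promoters of build GRCm38.p6, where 68 of the 81 members matched 73 windows. The NRF1 letters (GCGC, any 2 bases, GCGC) were in 27.4% of the member windows and in 6.23% of all 32851 windows. They were found for 9 of 32 members of complex I, 2 of 3 of complex II, 1 of 5 of complex III, 1 of 10 of complex IV and 6 of 14 of complex V. Member windows were also richer in G and C, with a median of 58.3% against 52.7% over all windows, and its part in these shares was not tested. The YY1 letters AAGATGGC were in 13.7% of member windows and 2.75% of all windows, and the ETS letters CCGGAAGT in 6.85% and 3.89%. The GATA letters AGATAA were in 8.22% of member windows against 11.2% of all windows. A match is a description of letters and not a bound site.

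The NRF1 letters are shown for 1 or 2 members of each complex, chosen among those described below, in stretches of 30 bases read 5′ to 3′ on the gene's strand, with the matched letters in capitals.
Ndufs6 (complex I): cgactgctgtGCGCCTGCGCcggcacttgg
Ndufa11 (complex I): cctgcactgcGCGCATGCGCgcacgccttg
Sdha (complex II): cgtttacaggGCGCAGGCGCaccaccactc
Uqcrc1 (complex III): cttccttacaGCGCTTGCGCctcagactcc
Cox6a1 (complex IV): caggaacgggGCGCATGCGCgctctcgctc
Atp5g2 (complex V): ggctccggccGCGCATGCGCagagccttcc
These stretches lie at chr13:73328479-73328508 (minus strand) for Ndufs6, chr17:56717692-56717721 (plus) for Ndufa11, chr13:74350319-74350348 (minus) for Sdha, chr9:108936643-108936672 (plus) for Uqcrc1, chr5:115349101-115349130 (minus) for Cox6a1 and chr15:102671070-102671099 (minus) for Atp5g2. The letters began 16 bases before the start of transcription in Ndufs6 and 162 bases before it in Cox6a1. Ndufs6 was the only 1 of the 68 members with both the NRF1 and the YY1 letters. The 19 members with NRF1 letters had a median log2 fold change of -0.18 (cKO minus control), and the other matched members -0.00. The same split gave -0.26 and -0.06 for the ETS letters (5 members with them) and -0.13 and -0.04 for the GATA letters (6 members). For the YY1 letters (10 members) it gave 0.06 and -0.09. The letters TATAAA, searched too, were in 8.22% of member windows and 13.6% of all windows. They were found for only 5 members, 4 of them of complex I, and the split gave -0.50 and -0.02. The part of the complexes in these medians was not tested. Ndufs6 and Ndufa11, the first pair of stretches, share the NRF1 letters and had differences of opposite sign, given below.

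Subunit transcripts of a complex were not present in equal amounts. Per kilobase of the principal transcript and averaged over the 4 libraries, the beta and alpha subunits of the ATP synthase, which form its catalytic head, were at 240 (Atp5b) and 206 (Atp5a1) CPM per kilobase. The small complex IV subunits Cox8a and Cox6a1 lay between them at 228 and 221. The medians of the complexes were 38.6 CPM per kilobase for complex I, 29.7 for complex II, 49.2 for complex III, 95.3 for complex IV and 77.7 for complex V. Within complex I the highest member, Ndufa1 at 160, was 27.8 times the lowest, Ndufb2. The same ratio was 4.99 in complex II, 5.02 in complex III, 5.98 in complex IV and 8.28 in complex V. The 27.8 depends on the lengths used, 419 bases for Ndufa1 and 2413 for Ndufb2. In CPM, Ndufa1 stood at 72.3, 69.1, 60.5 and 66.4 and Ndufb2 at 8.64, 18.1, 10.6 and 18.3. Ndufb2 also shares exon sequence with Braf on the opposite strand, so its level is uncertain.

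**Figure D1:**
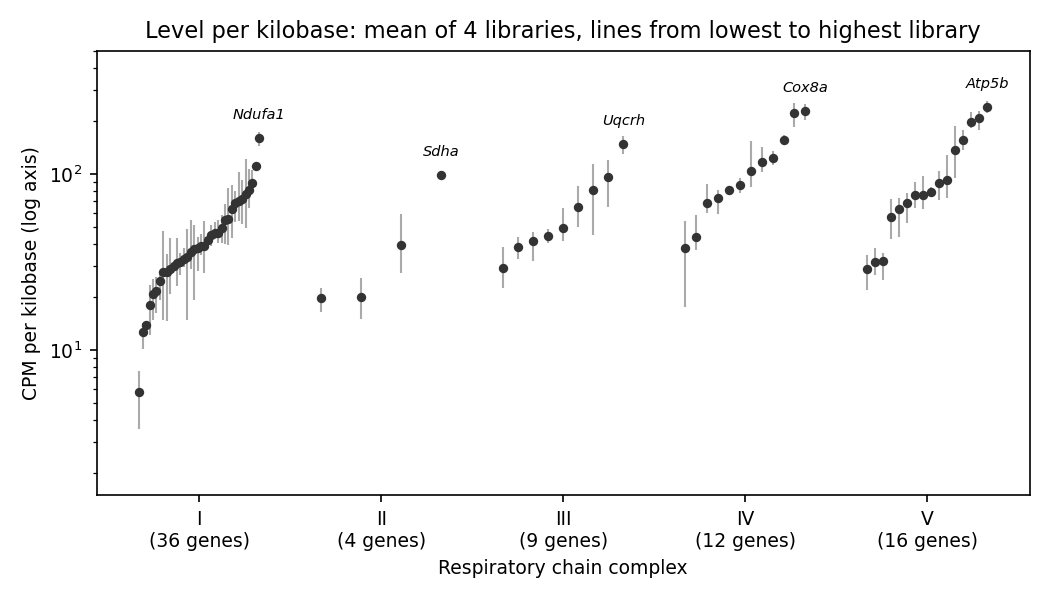
Level of each member in CPM per kilobase of principal transcript (points: mean of the 4 libraries, lines: lowest to highest library, log axis), sorted within its complex and with the highest member named. Complex I spans the widest range, 27.8 times from Ndufb2 to Ndufa1, for which lengths of 2413 and 419 bases were used. Complex IV has the highest median, 95.3.

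The comparison of cKO with control asked whether subunit transcripts differ when Gata2 is deleted. No member passed edgeR's adjusted p of 0.05, where 0.0576% of the 17349 genes tested did (10 genes), and the smallest adjusted p of a member was 0.679 by edgeR. At an unadjusted p under 0.05, 6 of 81 members (7.41%) were counted, against a background of 7.04% of all genes, so their share was near the background. Among genes with an average of at least 10 CPM, the share was 7.59% of members and 9.84% of all genes tested. The 6 members were Ndufs6 and Uqcrb, higher in the cKO, and Ndufs3, Ndufa11, Ndufb7 and Ndufb11, lower. The comparison rested on the libraries used. The members' median log2 fold change was 0.00 without control replicate 1 and -0.13 without control replicate 2. It was -0.01 without cKO replicate 1 and -0.10 without cKO replicate 2. Over all genes tested these medians were -0.02, 0.16, 0.01 and -0.02, in the same order. DESeq2 called Ndufs6 and Ndufs3, 2 of 81 members, where it called 5.77% of genes, and limma-voom called none, where it called 1.48%. At an unadjusted p under 0.05, DESeq2 counted 10 members beside 15.6% of all genes, and limma-voom 6 beside 8.67%.

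The members' differences were small in size. The median log2 fold change was -0.02, with 35 members higher and 46 lower, beside a median of 0.03 and 52.4% higher over all genes tested. The median size without sign was 0.20, beside 0.29 for the tested genes with an average of at least 10 CPM, and 65 of 81 members lay within 0.5 of 0. Both cKO libraries lay above both controls for 12 members (14.8%, background 19.7%) and below them for 17 (21%, background 19.3%). The spread between libraries of 1 group was of the same order: the median difference without sign between the controls was 0.36 on the log2 scale, and that between the cKO libraries 0.24. The 95% interval of the log2 fold change reached past a factor of 2 for 38 of 81 members, so these libraries do not exclude a difference of that size for them.

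**Figure D2:**
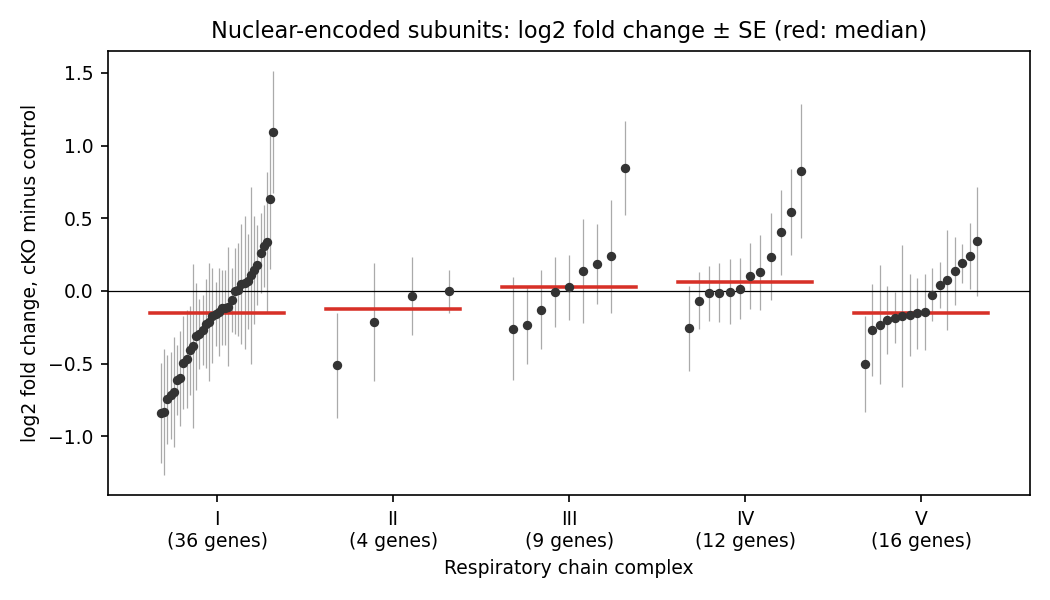
Log2 fold change (cKO minus control, edgeR) of each member of complexes I to V, sorted within its complex, with bars of 1 SE and a red line at the median of the complex. Most points lie within 0.5 of 0, and the medians run from -0.15 in complex I to 0.06 in complex IV.

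Complex I, the largest, held 5 of these 6 members and the most lower values. The 5 were 13.9% of its genes, beside 7.04% of all genes and 9.84% of those with an average of at least 10 CPM. Of the 36 subunit genes of complex I 23 were lower and 13 higher, with a median log2 fold change of -0.15. The share of higher genes was 36.1%, and it was 37.5% in complex V. For 13 members (36.1%) both cKO libraries lay below both controls, against a background of 19.3% of genes, and for 4 (11.1%) above, against 19.7%. The median rested on control replicate 1: without that library it was -0.01, with 18 members in each direction, and without control replicate 2 it was -0.29. By family, the medians were -0.16 over 13 Ndufa genes, -0.09 over 10 Ndufb genes, -0.20 over 8 Ndufs genes, -0.41 over 3 Ndufv genes and 0.10 over 2 Ndufc genes.

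The core subunits carry the flavin and iron-sulfur clusters that conduct electrons through complex I. The 7 nuclear core genes had a median log2 fold change of -0.29, with 5 lower and 2 higher, and 4 of 7 had both cKO libraries below both controls (background 19.3% of genes). Ndufs3, which codes for a core subunit of the peripheral arm (ENSMUSG00000005510.9, mm10 chromosome 2, 90894634 to 90904827), stood at 70.6, 67.2, 48.2 and 41.8 CPM. Both cKO libraries were lower than both controls, and the controls lay close together. Its log2 fold change was -0.61 (SE 0.24, edgeR unadjusted p = 0.0380 and adjusted p = 0.691, DESeq2 adjusted p = 0.0453). Kbtbd4, whose exons overlap those of Ndufs3 on the opposite strand, had counts equal to 16.0% of those of Ndufs3. It was lower in the cKO too, at 22.5, 7.65, 5.59 and 5.28 CPM (-1.46, SE 0.75). Counts of Ndufs3 were fractional in 3 libraries, so its level is uncertain.

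Ndufs7, which carries the last iron-sulfur cluster before ubiquinone, stood at 35.4, 46.9, 23.9 and 30.4 CPM (log2 fold change -0.60, SE 0.33). Ndufs1, the largest core subunit and bearer of several clusters, stood at 70.4, 72.6, 50.9 and 65.8 CPM (-0.29, SE 0.24). Ndufv2, a flavoprotein-module subunit with a cluster of its own, stood at 39.7, 44.3, 27.6 and 35.8 CPM (-0.41, SE 0.31). In these 3 genes both cKO libraries lay below both controls, and none had an unadjusted p under 0.05 by edgeR. Ndufs1 shares exon sequence with Eef1b2 on the opposite strand, whose counts were 157% of its own (-0.24, SE 0.21). Ndufv1, which binds NADH and the flavin, was at 63.3, 49.99, 55.1 and 49.4 CPM, and its groups overlapped. Ndufs8 hardly varied, at 28.4, 30.0, 29.6 and 29.1 CPM (0.01, SE 0.32).

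The accessory subunits surround the core and serve its assembly and stability. Of the 29 accessory genes 18 were lower and 11 higher, with a median log2 fold change of -0.14. Ndufs6, a zinc-binding subunit needed late in assembly (ENSMUSG00000021606.8, chromosome 13, 73319838 to 73328542), stood at 11.0, 16.0, 28.7 and 29.2 CPM. The cKO libraries were nearly equal and above both controls. Its log2 fold change of 1.10 (SE 0.42, edgeR unadjusted p = 0.0336, adjusted p = 0.679, DESeq2 adjusted p = 0.0277) was the largest among the members of the 5 complexes. It was 0.85 without control replicate 1 and 1.39 without control replicate 2. Mrpl36, on the opposite strand over shared exon sequence, stood at 13.004, 7.50, 11.9 and 9.50 CPM.

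Ndufa11, a membrane-arm subunit (ENSMUSG00000002379.7, chromosome 17, 56717767 to 56722141), stood at 45.1, 32.5, 21.9 and 21.5 CPM, with both cKO libraries below the controls (log2 fold change -0.84, SE 0.34, edgeR adjusted p = 0.694). Its exons overlap those of Vmac on the opposite strand, and Vmac stood at 60.1, 52.8, 28.0 and 31.9 CPM (-0.91, SE 0.28). Whether the counting used strand is not stated in the sources at hand, so reads of this pair cannot be told apart. Ndufb7 (ENSMUSG00000033938.5, chromosome 8, 83566671 to 83571626), a subunit at the outer face of the membrane arm, stood at 53.7, 44.3, 26.9 and 32.5 CPM (-0.72, SE 0.30, edgeR adjusted p = 0.698). Ndufb11 (ENSMUSG00000031059.9, chromosome X, 20615326 to 20617619), another membrane-arm subunit, stood at 110.0, 65.9, 45.1 and 59.7 CPM (-0.75, SE 0.31, edgeR adjusted p = 0.698). Control replicate 1 was by far the highest for Ndufb11, and without it the log2 fold change was -0.33. Rbm10, on the opposite strand over shared exon sequence with Ndufb11, had counts equal to 122% of its counts.

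Other accessory subunits showed the same order of spread. Ndufb5, of the membrane arm, stood at 52.7, 40.9, 36.5 and 16.0 CPM, with cKO replicate 2 far below the rest (-0.83, SE 0.43). Ndufb4 stood at 42.3, 26.8, 20.3 and 22.4 CPM (-0.69, SE 0.38), and its counts were fractional in every library, so its level is uncertain. Ndufb9 was on the other side, at 10.3, 20.2, 24.8 and 22.7 CPM (0.63, SE 0.48). Ndufa1 and Ndufa6, with the highest levels per kilobase in complex I, stood at 72.3, 69.1, 60.5 and 66.4 CPM and at 66.5, 67.7, 61.7 and 67.0 CPM. Ndufab1, the mitochondrial acyl carrier protein, was at 32.6, 35.6, 33.3 and 34.8 CPM. These 3 transcripts differed little between any libraries. Ndufa5, which stood at 41.7, 13.05, 22.9 and 19.1 CPM, shows how far the controls could lie apart.

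**Figure D3:**
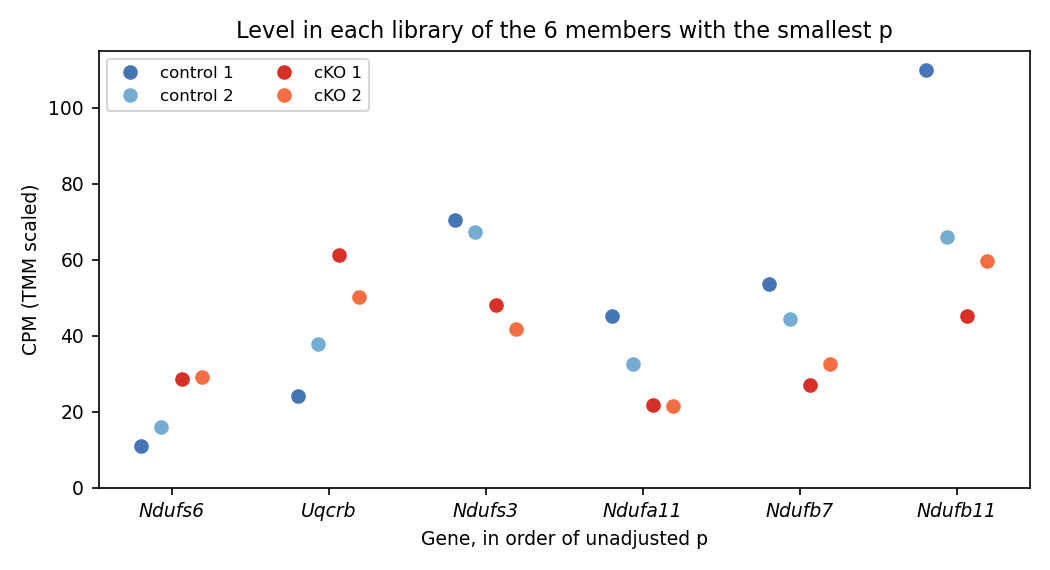
Level in CPM in each of the 4 libraries for the 6 members with an unadjusted p under 0.05 by edgeR. For Ndufs6 and Uqcrb both cKO libraries lie above both controls, and for Ndufs3, Ndufa11, Ndufb7 and Ndufb11 below them.

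Complex II, which also serves the tricarboxylic acid cycle, showed no member whose groups stood apart. All 4 genes had log2 fold changes under 0, with a median of -0.12, and the libraries of the groups overlapped for each. Sdha, the flavoprotein that oxidises succinate, stood at 277, 295, 299 and 273 CPM, with a log2 fold change of -0.00 and a 95% interval from -0.35 to 0.35. Sdhb, the iron-sulfur subunit, stood at 67.7, 38.1, 42.9 and 31.2 CPM (-0.51, SE 0.36). Control replicate 1 was the high library for Sdhb, and without it the log2 fold change was -0.04. The membrane anchors were at 71.6, 55.5, 52.3 and 71.6 CPM (Sdhc) and at 21.5, 31.6, 27.3 and 18.5 CPM (Sdhd).

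In complex III 5 genes were higher and 4 lower, with a median log2 fold change of 0.02. Uqcrb, a ubiquinone-binding subunit (ENSMUSG00000021520.4, chromosome 13, 66900617 to 66905378), stood at 24.2, 37.8, 61.2 and 50.2 CPM, with both cKO libraries above both controls. Its log2 fold change was 0.84 (SE 0.32, edgeR unadjusted p = 0.0345, adjusted p = 0.683). It was the only member of complex III whose groups did not overlap. Its counts were fractional in all libraries, so its level is uncertain.

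The electron-carrying subunits of complex III lay within the spread of the libraries. Cyc1, the cytochrome c1 subunit, stood at 34.3, 50.8, 35.0 and 58.7 CPM, and Uqcrfs1, the Rieske iron-sulfur protein, at 43.6, 62.9, 57.6 and 63.7 CPM. In both genes the second library of each group was the higher. The core proteins Uqcrc1 and Uqcrc2, related to processing peptidases, stood at 69.9, 106, 68.7 and 80.5 CPM and at 69.5, 77.3, 62.7 and 83.5 CPM. Uqcrh, the hinge protein and the highest of the complex per kilobase, stood at 89.7, 70.5, 84.4 and 78.3 CPM (log2 fold change 0.02, SE 0.22). Uqcr11 stood at 53.6, 39.2, 28.8 and 48.6 CPM (-0.26, SE 0.35). Cycs, the mobile carrier between complexes III and IV, stood at 20.5, 34.2, 40.7 and 34.3 CPM (0.45, SE 0.37), with fractional counts in each library. Control replicate 1 was its low library, and the second libraries of the groups were nearly equal.

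In complex IV 7 genes were higher and 5 lower, with a median log2 fold change of 0.06. Cox6b1, which sits at the dimer interface, stood at 52.0, 52.6, 95.2 and 57.4 CPM (0.54, SE 0.29), and without cKO replicate 1 its log2 fold change was 0.13. Cox5a, a matrix-side subunit, stood at 11.4, 24.0, 34.9 and 28.1 CPM (0.82, SE 0.46), and control replicate 1 was its low library. Cox7b, a small membrane subunit, stood at 38.9, 37.1, 58.8 and 41.7 CPM (0.40, SE 0.29). In these 3 genes both cKO libraries lay above both controls (25% of the complex, background 19.7% of genes), and none had an unadjusted p under 0.05 by edgeR. Both lay below both controls for 2 genes of the complex (16.7%, background 19.3%). The most abundant subunits were nearly level: Cox4i1, the regulatory subunit that starts assembly, stood at 124, 113, 125 and 110 CPM. Cox6a1 stood at 145, 106, 126 and 128 CPM, and Cox8a at 136, 116, 112 and 138 CPM, with groups that overlapped. Ndufa4, which is named for complex I and is a subunit of complex IV, stood at 43.1, 41.4, 39.4 and 31.5 CPM (-0.26, SE 0.29).

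Several complex IV subunits come as paralogues made in different tissues, and the ubiquitous form was the main one here. Cox4i2, Cox6a2 and Cox8c had no count in any library, while Cox7b2 had 4 counts, Cox8b 9 and Ndufa4l2 3, all in control replicate 2. A count of 0 allows up to 0.273 CPM in control replicate 1 and 0.143 in control replicate 2, for counting error only. Cox6b2, known from testis, stood at 0, 2.20, 1.80 and 3.48 CPM, and Cox7a1, known from heart and skeletal muscle, at 0, 4.40, 6.75 and 1.29 CPM. Cox7a2, the form found in most tissues, stood at 42.0, 40.2, 39.4 and 57.6 CPM, and Cox7a2l, which takes part in supercomplexes, at 88.8, 88.5, 86.7 and 82.6 CPM. The second row named Atp5o (ENSMUSG00000116933.1) was also at 0 in all libraries.

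Complex V had 6 genes higher and 10 lower, with a median log2 fold change of -0.15, which was 0.03 without control replicate 1. The F1 head, where ATP is made, had a median of 0.04 over 5 genes, and the Fo motor and stalk -0.17 over 11 genes. Atp5b, the catalytic beta subunit, stood at 434, 425, 480 and 499 CPM. Both cKO libraries were above both controls, by a small step (log2 fold change 0.19, SE 0.13, 95% interval from -0.12 to 0.50). Atp5a1, the alpha subunit, stood at 440, 566, 507 and 528 CPM (0.04, SE 0.16), and its groups overlapped.

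The c subunits form the ring that turns in the membrane, and 3 genes code for the same mature protein. Atp5g3 was the highest of them at 197 CPM per kilobase, followed by Atp5g2 at 89.2 and Atp5g1 at 31.5. The order of Atp5g2 and Atp5g1 depends on the lengths used, as Atp5g1 had more CPM than Atp5g2 in every library. In CPM, Atp5g3 stood at 161, 140, 130 and 135 (log2 fold change -0.18, SE 0.18), with both cKO libraries below the controls. Atp5g2 stood at 60.8, 49.7, 41.7 and 56.9 CPM and Atp5g1 at 102, 78.1, 71.5 and 85.2 CPM, with groups that overlapped. Atp5l, subunit g of the dimer interface, stood at 32.9, 39.4, 27.8 and 23.2 CPM (-0.50, SE 0.33). Atp5f1, the stalk subunit b, stood at 84.2, 118, 113 and 126 CPM (0.24, SE 0.22). Counts of Atp5l and Atp5g2 were fractional in every library. Atp5d, the delta subunit of the F1 part, shares exon sequence with Cbarp on the opposite strand, whose counts were 378% of its own. Atp5s stood at 4.46, 17.6, 11.0 and 12.4 CPM, with the lowest and the highest value both in controls.

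Summed over its members, complex I reached 1719, 1469, 1343 and 1454 CPM, so both cKO libraries lay below both controls. The nearest values, those of control replicate 2 and cKO replicate 2, were close, and the groups overlapped when levels were taken per kilobase of all annotated exons. Complex IV reached 872, 843, 941 and 886 CPM, with both cKO libraries above, though they overlapped the controls when scaled by library size only. Complex II reached 438, 420, 422 and 394 CPM, complex III 449, 521, 462 and 543 CPM, and complex V 1985, 1933, 1912 and 2056 CPM, all 3 with overlapping groups. Per kilobase of all annotated exons, both cKO libraries of complex II lay below both controls, at 137, 131, 129.9 and 117 CPM per kilobase. With 2 libraries against 2, the smallest p of a two-sided exact permutation test is 0.333, which complexes I and IV reached, so this test cannot pass 0.05 here.

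**Figure D4:**
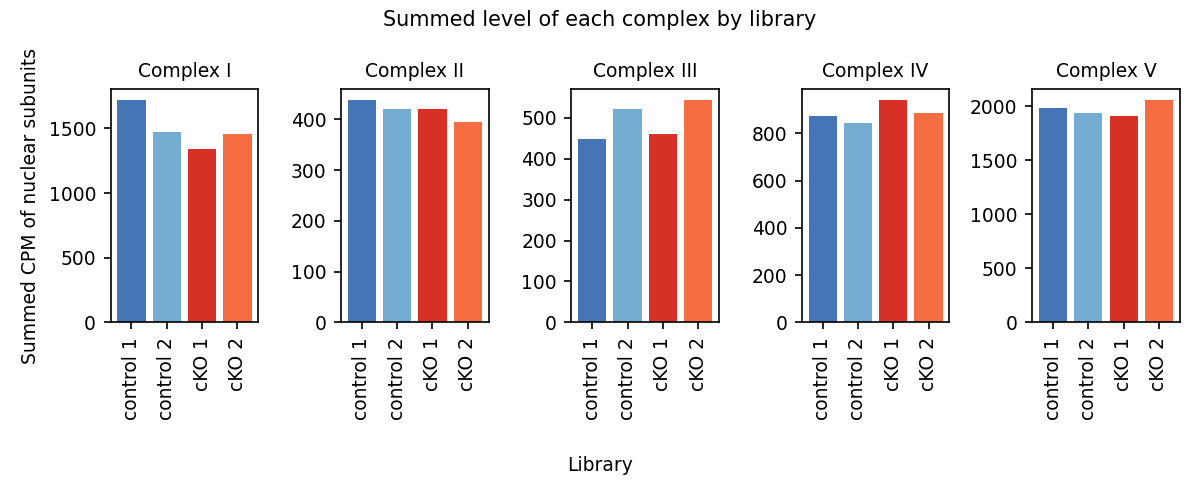
Summed level of each complex in CPM in each of the 4 libraries. Both cKO libraries lie below both controls for complex I and above them for complex IV, and the groups overlap for complexes II, III and V.

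Ratios between complexes within a library do not depend on the scaling between libraries. Of 10 such ratios 3 had groups that did not overlap. Among all genes tested, both cKO libraries lay above both controls for 19.7% and below them for 19.3%. Groups that do not overlap are thus common with 2 libraries against 2. The ratio of complex I to complex IV was 1.97 and 1.74 in controls and 1.43 and 1.64 in cKO libraries. That of complex I to complex V was 0.866 and 0.760 in controls and 0.703 and 0.707 in cKO libraries. The ratio of complex II to complex IV was 0.502 and 0.499 against 0.448 and 0.445, with little spread within a group. Each had an exact permutation p of 0.333, the smallest possible here, before any adjustment over the 10 ratios. Within complex V the F1 genes summed to 1.71 and 1.96 times the Fo and stalk genes in controls and 2.08 and 2.004 times in cKO libraries.

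The transcripts of the mitochondrial genome, which code for the partner subunits, were on one side. All 13 mitochondrially encoded genes were higher in the cKO at an unadjusted p under 0.05 by edgeR, where 3.15% of all genes were, and none passed the adjusted threshold. Their median log2 fold change was 0.65, and 0.42 without control replicate 1, where all 13 were still higher. Without cKO replicate 1, 11 of the 13 passed the adjusted threshold in a fit that called 95 genes in all, 39 of them higher. Without cKO replicate 2, 1 passed in a fit that called 107 genes, 27 of them higher. In these fits the cKO is 1 library, assumed to vary like the controls, which alone give the spread. They are cut from shared transcripts of 1 small genome and so are not independent. The most frequent, mt-Co1, stood at 14400, 17075, 19775 and 23987 CPM (log2 fold change 0.48, SE 0.12), and the gene with the smallest p, mt-Nd1, at 4207, 4656, 6545 and 8132 CPM (0.73, SE 0.12, edgeR adjusted p = 0.216). Together the 13 genes made up 51846, 60980, 75778 and 90221 CPM.

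Nuclear transcripts per mitochondrially encoded transcript of the same complex were thus lower in the cKO libraries. For complex I there were 8.63 and 6.30 nuclear CPM per 100 mitochondrially encoded CPM in controls, and 4.52 and 4.15 in cKO libraries. For complex III these values were 4.41 and 5.47 against 3.62 and 3.59, and for complex IV 4.48 and 3.49 against 3.32 and 2.60. For complex V they were 85.8 and 48.3 against 39.0 and 34.8. In all 4 complexes both cKO libraries lay below both controls, each with an exact permutation p of 0.333. The shared part of these ratios is the mitochondrially encoded sum, which differed by 0.56 on the log2 scale, while the sum of all members differed by -0.03. The sum of the lactotrope markers, 4 genes, also stood higher in both cKO libraries, at 358, 629, 1350 and 1365 CPM. The sum of the gonadotrope markers was lower. Nr5a1 among these had overlapping groups, at 277, 397, 275 and 372 CPM (log2 fold change -0.06, SE 0.23). The part of these cell types in the mitochondrial values was not tested.

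**Figure D5:**
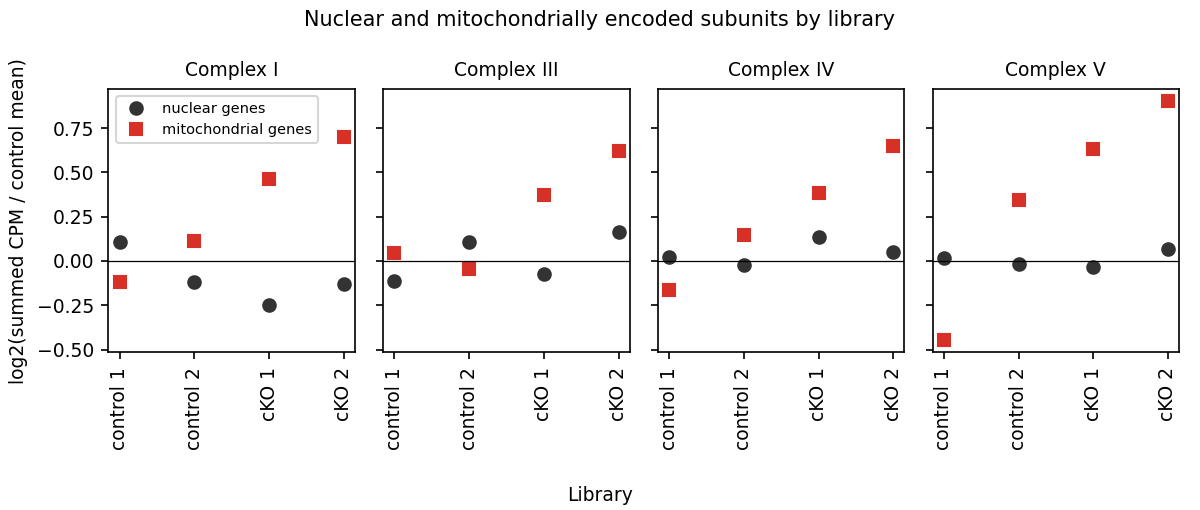
Summed CPM of the nuclear genes (black circles) and mitochondrially encoded genes (red squares) of complexes I, III, IV and V in each library, as log2 of the ratio to the mean of the 2 controls. The mitochondrially encoded sums of both cKO libraries lie above both controls in each complex. The nuclear sums of both cKO libraries lie below both controls for complex I and above them for complex IV, and the groups overlap for complexes III and V. The log2 ratio of the nuclear cKO mean to the control mean is -0.19, 0.05, 0.09 and 0.02 for complexes I, III, IV and V.

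Genes that build or steer the respiratory chain were read from the same fit. Of 16 tested assembly factors of complex I, 11 were lower and 5 higher, with a median log2 fold change of -0.27, 1 lower at an unadjusted p under 0.05 by edgeR (background 3.88%) and none past the adjusted threshold. That gene was Tmem186, an assembly factor of the membrane arm, at 25.2, 15.8, 4.76 and 7.08 CPM (-1.79, SE 0.58, edgeR adjusted p = 0.634). Of 34 tested assembly factors of complexes II to V, 20 were lower and 14 higher, with a median of -0.27 and 2 lower at an unadjusted p under 0.05 by edgeR. Atpaf1, a chaperone of the F1 beta subunit, stood at 14.6, 16.5, 2.25 and 4.61 CPM (-2.18, SE 0.73, edgeR adjusted p = 0.642). Both cKO libraries of Atpaf1 lay well below the controls, while those of its client Atp5b lay above them. Lyrm7, a chaperone of the Rieske protein, was at 2.18 and 5.73 CPM in controls and had no count in either cKO library. These medians depended on single libraries: that of complex I factors was -0.01 without cKO replicate 1, and that of the others -0.00 without control replicate 2.

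The 17 regulators of mitochondrial biogenesis and mitochondrial DNA had a median log2 fold change of -0.02, with 8 higher and 9 lower and none at an unadjusted p under 0.05. Nrf1, whose letters are shown above, stood at 12.5, 24.0, 29.7 and 19.9 CPM, and Tfam, which packs mitochondrial DNA, at 16.3, 20.1, 19.5 and 23.7 CPM. Both were named for their role. Twnk, the helicase of mitochondrial DNA, stood at 20.4, 17.8, 28.0 and 30.4 CPM (0.61, SE 0.36), and Polrmt, the RNA polymerase of mitochondria, at 23.0, 33.8, 39.2 and 40.5 CPM (0.49, SE 0.33). In Twnk and Polrmt both cKO libraries lay above both controls, as they did for 19.7% of all genes tested. Of the 17 genes of the tricarboxylic acid cycle, 10 were lower and 7 higher, with a median of -0.06. Fh1, fumarase, which uses the product of complex II, stood at 50.01, 42.7, 27.5 and 13.1 CPM (-1.19, SE 0.42, edgeR adjusted p = 0.649). It was the only gene of that list at an unadjusted p under 0.05 by edgeR, beside 3.88% of all genes lower at that threshold.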

How the data were processed

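RNA of 4 libraries was sequenced, 2 from controls and 2 from cKO mice, grouped by the genotype in the labels. The deposited table holds estimated counts per gene, made by the authors using mm10, STAR (version 2.5.1b) and featureCounts (version 1.5.0-p1), per the submitters' processing notes. How the counting treated strand and reads with many matches, and its annotation release, are not stated in the sources at hand. Of the deposited values 4.50% were fractional, including values of 26 members. Names and positions came from GENCODE M21 (54409 of 54532 identifiers matched).

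Counts were rounded, filtered with filterByExpr (minimum count 10, minimum total 15) to 17349 genes and scaled with TMM. The test was edgeR 4.0.16's two-sided quasi-likelihood F-test run in R 4.3.3 on group alone, adjusted by Benjamini-Hochberg over all genes. The SE is the size of the log2 fold change divided by the square root of F, and 95% intervals use the t distribution with the fit's degrees of freedom. Differences between 2 libraries used log2 of CPM plus 0.5. Levels per kilobase used the principal transcript (the median length where a gene has several). The test was tried on simulated data. DESeq2 1.42.0, limma-voom (limma 3.58.1), other scalings and filters, a block and each library left out were alternatives. The members, lists and rule for named genes were chosen with earlier results of these data known. Full values are given for the 3 members of each complex with the smallest p, the 2 with the highest level per kilobase, the core and electron-carrying subunits, the subunit c genes and the complex IV paralogues, and for up to 2 genes with the smallest p of each list. Other members are named for their spread or role after their values were seen. The values of 1 member under this rule are not reported here. Of 28 members whose exons overlap another gene, 16 had a partner with over 10% of their counts, all on the opposite strand. Intervals and floors (3 counts) cover counting error or library spread only: reads were not tied to molecules by identifiers.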

Additional observations from a re-analysis of the deposited data

How the results depend on the processing

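No member was called by edgeR under any scaling, filter or left-out library tried, and DESeq2 called 2. Genes called over the whole table numbered 10, against 253 with no filter, 963 by DESeq2, 256 by limma-voom, 3 where a filter of 1 CPM in 2 libraries was used, 26 with the robust form of edgeR, 47 with its newer quasi-likelihood method, and 2 to 107 with 1 library left out (leaving out control replicate 1 gave 2, control replicate 2 gave 8, cKO replicate 1 gave 95 and cKO replicate 2 gave 107). Same-numbered deviations correlated at -0.011 across genes. With 2 libraries in each group, that value cannot settle whether replicate numbers pair the samples. With the replicate block 7 genes and 0 members were called. The median of complex IV was 0.018 with library size only, 0.10 with Ndufa4 counted in complex I and 0.12 with isoforms included. The summed level of complex II had a log2 ratio of -0.14 per kilobase against -0.07 in CPM. With 1 library left out, the medians ran from -0.29 to -0.013 in complex I, -0.29 to -0.044 in II, -0.19 to 0.19 in III, 0.015 to 0.16 in IV and -0.24 to 0.030 in V. The causes were not tested. Of 640 values of named members under alternatives, 616 stayed within 1 SE and 22 moved further without a call. The scale per kilobase of all exons, and leaving out libraries for the mitochondrially encoded and assembly factor lists, were added after seeing the data.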
